A study of Mus musculus with 48 samples.

Results

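Around-the-clock RNA-seq and ribosome profiling (RPF-seq) data from mouse kidney were used to follow 8 genes of the podocyte slit diaphragm: Nphs1, Podxl, Synpo, Wt1, Ptpro, Magi2, Cd2ap and Kirrel. The members were listed by name and matched to the Ensembl identifiers of the deposited tables through their symbols, and all 8 were found among the 12423 genes quantified in both assays. Each of the 24 pools combined lysates from the kidneys of 2 male C57BL/6JRj mice aged 11-12 weeks. Kidneys were taken every 2 h for 2 daily cycles, with 2 pools per timepoint. Timepoints ran from ZT00 (Zeitgeber time 0, lights on) to ZT22, with lights off at ZT12. The labels number the 2 pools of a timepoint and do not name their cycle. The mice were untreated and differed between groups only in the time of collection, and 1 RNA-seq and 1 RPF-seq library came from each lysate pool. The tissue was whole kidney, so in these bulk samples fewer podocytes and less RNA per podocyte cannot be told apart.

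Podocytes are the epithelial cells that wrap the glomerular capillaries, and their interdigitating foot processes are bridged by the slit diaphragm, the last barrier of the glomerular filter. Nephrin (Nphs1) and NEPH1 (Kirrel) are the immunoglobulin-family proteins that span the slit, and their cytoplasmic tails are held by the adaptor Cd2ap and the scaffold Magi2. Synaptopodin (Synpo) binds the actin filaments of the foot process, podocalyxin (Podxl) and the receptor phosphatase GLEPP1 (Ptpro) sit on its apical membrane, and Wt1 is the transcription factor that maintains the podocyte programme. Cd2ap is also made by other kidney cells, and Podxl by vascular endothelium.

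The 8 genes lie on 7 chromosomes of the mouse genome (GENCODE vM21, build GRCm38). Nphs1 is at chr7:30458315-30487223 on the plus strand, Wt1 at chr2:105126529-105173616 (plus), Ptpro at chr6:137252319-137463233 (plus), Magi2 at chr5:19227036-20704792 (plus), Podxl at chr6:31519488-31563981 (minus), Cd2ap at chr17:42792951-42876665 (minus) and Kirrel at chr3:87078593-87174747 (minus). Values below are counts over the coding exons only. An antisense transcript, Nphs1os, shares 597 coding bases (15.3%) of Nphs1, and Gm29254 on the same strand shares 203 coding bases (4.61%) of Magi2. Whether the counting used strand is not given in the sources used here, so reads on these bases cannot be assigned with certainty.

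The bases around the start codon are shown because the members differed in how many footprints they had per RNA, and the start context is a known influence on initiation. Each run has 9 bases before the start codon, the start codon in capitals and 1 base after it, 5′ to 3′ in the sense of the gene, from the GENCODE transcript used here. The start codons are at chr7:30460144-30460146 (Nphs1), chr3:87141107-87141109 (Kirrel), chr17:42876314-42876316 (Cd2ap), chr5:19227289-19227291 (Magi2), chr6:31563646-31563648 (Podxl) and chr6:137252686-137252688 (Ptpro).
Nphs1: ctgctggtgATGg
Kirrel: gctttaggaATGa
Cd2ap: agccgcagcATGg
Magi2: cctactgccATGt
Podxl: agcacaaccATGc
Ptpro: cgcgccgcgATGg

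Scored against the vertebrate start consensus, with 3 points for each of its strongest bases and 1 for the others (13 at most), Ptpro reached 12, Cd2ap and Synpo 8, Nphs1, Podxl and Magi2 6, and Kirrel 3. The median over 11490 genes was 7. The annotated Wt1 transcript holds no base before its coding start and was not scored.

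The RPKM values rested on 9.83 M to 33.5 M coding reads per RNA library (median 16.4 M) and 15.5 M to 34.9 M per RPF library (median 22.1 M), as recovered from the step between low values. The light-phase libraries were deeper than the dark-phase ones, with medians of 18.7 M against 13.4 M in RNA-seq and 26.02 M against 20.1 M in RPF-seq, and the part of depth in the rhythms was not tested. The RPF library of ZT04 pool 2 listed 162 genes at 0, against at most 23 in any other library. The time labels were checked on the clock genes Arntl, which peaked at 22.5 h with a fitted RNA amplitude of 24.98-fold, and Dbp, which peaked at 10.5 h with 42.1-fold. Podocyte identity was carried by 20 listed podocyte genes that are not members, of which 20 were in the RNA tables and 19 in the RPF tables. Their summed level ranged from 321.1 to 431.7 RPKM in RNA-seq and from 382.9 to 507.6 in RPF-seq. Proximal tubule markers summed to between 5759 and 6786 RPKM in RNA-seq, so podocyte transcripts were a small share of these libraries. Of the markers of neighbouring tissue, all 6 adrenal genes were not listed, and those of red blood cells summed to between 54.4 and 373.2 RPKM in RNA-seq.

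Cd2ap and Podxl were the abundant members and the other 6 were scarce. On the RPKM scale, which is per length, RNA levels over the 24 pools averaged 52.4 ± 5.66 (SD, n = 24) for Cd2ap and 50.3 ± 5.08 for Podxl. The other 6 members followed, at 6.43 ± 1.28 (Synpo), 6.09 ± 0.79 (Nphs1) and 5.69 ± 0.72 (Kirrel). Ptpro (5.39 ± 0.58), Wt1 (3.57 ± 0.65) and Magi2 (3.52 ± 0.52) came last. Each neighbour in this order overlapped the next over the pools, apart from the step from Podxl (lowest pool 37.3) to Synpo (highest pool 9.25).

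The order of the footprints was another one. Podxl led with 99.3 ± 6.85 RPKM in RPF-seq, above Cd2ap with 46.1 ± 2.90, and the pools of both genes did not overlap (lowest Podxl pool 85.3, highest Cd2ap pool 52.0). Wt1, seventh by RNA, was the third by footprints at 5.53 ± 0.64 RPKM. Nphs1 had 5.13 ± 0.67, Kirrel 5.06 ± 0.57, Synpo 4.62 ± 0.85, Ptpro 3.57 ± 0.49 and Magi2 2.55 ± 0.50. These 6 overlapped with their neighbours.

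Counting error differed with these levels. Reads per library were derived from the RPKM with the longest annotated coding sequence of each member. Annotated coding lengths numbered 6 for Wt1, 10 for Magi2 and 5 for Synpo, and where a shorter one applied the reads were fewer. Wt1 rested on a median of 87.9 coding reads per RNA library, which alone gives a coefficient of variation of 10.7%, and its RPKM varied by 18.1% over the pools. Podxl rested on 3168 reads per RPF library (1.78%) and varied by 6.89%. For the other scarce members the median library held between 210.0 (Kirrel) and 380.1 (Synpo) RNA reads.

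Translation efficiency (TE), the ratio of RPF to RNA RPKM within a pool, split the members. Podxl had a TE of 1.99 ± 0.20 (SD, n = 24) and Wt1 of 1.59 ± 0.26, whereas Kirrel (0.90 ± 0.13), Cd2ap (0.89 ± 0.08), Nphs1 (0.85 ± 0.13), Synpo (0.73 ± 0.12), Magi2 (0.73 ± 0.10) and Ptpro (0.67 ± 0.08) had values under 1. Relative to the median gene of the same pool, Podxl was 2.09-fold (log2 1.06 ± 0.03 SE) and Wt1 1.64-fold (0.71 ± 0.04) higher. Synpo (0.77-fold), Magi2 (0.77-fold), Ptpro (0.70-fold), Nphs1 (0.89-fold) and Cd2ap (0.93-fold) were lower, and Kirrel at 0.94-fold did not pass the test (FDR = 0.061). FDR stands for the limma p-value adjusted over all 11863 genes tested by the Benjamini-Hochberg method, and values under 0.05 were called. Where a permutation test of each gene is named below, FDR stands for its permutation p-value adjusted in the same way. The 7 of 8 members called compare with 90.4% of all tested genes, 45.6% called above and 44.8% below the median gene, so a call was the rule for any gene.

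**Figure D1:**
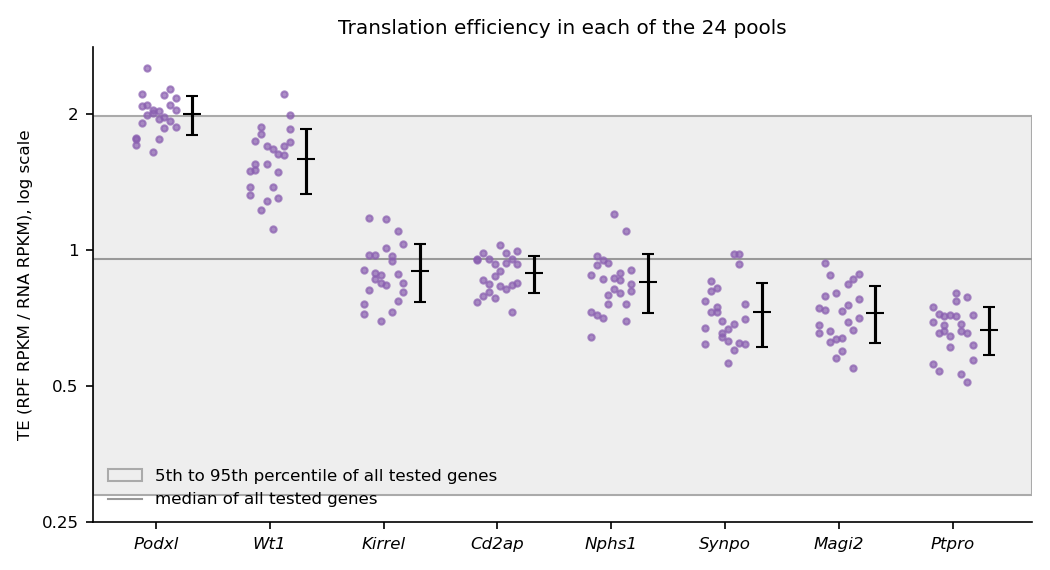
Translation efficiency (RPF RPKM over RNA RPKM, log scale) in each of the 24 pools for the 8 members; black bars are the mean ± SD, the grey line is the median gene (0.956) and the shaded band the 5th to 95th percentile of all tested genes (0.287 to 1.98). Podxl and Wt1 lie above the median gene in every pool, and Ptpro and Magi2, with highest pools of 0.803 and 0.936, below it in every pool.

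The size of the split is seen in single pools. The lowest, median and highest TE were 1.64, 2.00 and 2.52 for Podxl, 1.11, 1.58 and 2.21 for Wt1, 0.642, 0.850 and 1.20 for Nphs1, and 0.509, 0.673 and 0.803 for Ptpro. The pools of Podxl and Wt1 overlapped with each other, and neither overlapped with Ptpro, Synpo (highest 0.981) or Magi2 (highest 0.936). Ptpro had the highest start context score and the lowest TE, and Podxl, Nphs1 and Magi2 shared a score of 6. Wt1 had no score, and the part of the start context in TE was not tested.

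The design then asked which members changed over the day. A 24-h cosine was fitted to log2(RPKM + 0.1) of each gene and assay, and amplitudes are given as the fitted fold from trough to peak on that scale. In RNA-seq, 4 of 8 members were called rhythmic (Nphs1, Synpo, Wt1 and Magi2), against 48.6% of all tested genes, a share near that of the members. None of the 8 reached a fold of 1.5 together with an FDR under 0.05, against 10.2% of all genes. The fitted cosines of all 4 called members peaked in the light phase, the rest phase of mice, as did those of 53.3% of all called genes. The peak of Magi2 was at 12.8 h with a 12-h harmonic added and at ZT14 with timepoint as a factor. With the 12 pool 2 libraries alone none of the 8 was called in either assay, while the calls over all genes went from 5761 to 1200 for RNA and from 3663 to 460 for footprints. With pool 1 alone it was 3 for RNA (Nphs1, Synpo and Podxl) and 1 for footprints (Synpo).

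Among the genes of the slit itself, Nphs1 RNA had its lowest, median and highest pools at 4.89, 6.15 and 7.68 RPKM. The pools of ZT08 were at 7.68 and 6.69 RPKM and those of ZT20 at 5.06 and 5.00. All pools of ZT02 to ZT08 were at or above 6.57 and all of ZT20 and ZT22 at or below 5.48, while those of ZT12 (6.52 and 5.02) and ZT18 (4.89 and 6.02) were split. The fitted rhythm was 1.32-fold (log2 0.40 ± 0.08 SE), peaked at 6.62 h and had an FDR of 0.000588. Kirrel RNA, with 4.42, 5.65 and 6.75 RPKM as its lowest, median and highest pools, showed no such order. Its pools of ZT10, at 6.31 and 4.42 RPKM, differed by nearly as much as all 24, and its fit of 1.12-fold did not pass the test (FDR = 0.40).

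Of the adaptors, Magi2 RNA ran from 2.51 to 4.33 RPKM with a median of 3.64. It was highest in ZT14 pool 2 and lowest at ZT20, at 2.51 and 2.78. The fit gave 1.297-fold (log2 0.38 ± 0.11 SE) with a peak at 8.39 h (FDR = 0.018). Cd2ap RNA ranged from 42.1 to 60.9 RPKM around a median of 51.5, and its fit of 1.14-fold did not pass (FDR = 0.15). Unlike the other members its fitted peak, at 22.1 h, fell in the dark phase.

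Synpo, the actin-binding member, is a gene of chromosome 18. Its RNA varied most of all 8, from 3.93 RPKM in ZT18 pool 2 over a median of 6.495 to 9.25 in ZT08 pool 1. The pools of ZT06 and ZT08 were all at or above 7.90 and those of ZT18 and ZT20 all at or below 5.28. The fitted rhythm was 1.47-fold (log2 0.55 ± 0.12 SE), peaked at 6.53 h and had an FDR of 0.0022. For Wt1, RNA was highest in ZT08 pool 1 with 5.43 RPKM, lowest in ZT12 pool 2 with 2.59, and had a median of 3.42. The fit was 1.37-fold (log2 0.46 ± 0.11 SE) with a peak at 4.22 h (FDR = 0.0055).

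Neither of the apical membrane genes passed the test. Podxl RNA lay between 37.3 and 59.0 RPKM with a median of 49.7, and its fit was 1.06-fold (FDR = 0.66). Its 3 lowest pools were all pool 2, of ZT12 (37.3), ZT04 (40.3) and ZT10 (44.1), beside 53.7, 52.5 and 55.5 in pool 1. Ptpro RNA was highest at ZT10, at 6.60 and 6.63 RPKM, and lowest at ZT00, at 4.46 and 4.55, and its fit of 1.16-fold did not pass (FDR = 0.11).

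**Figure D2:**
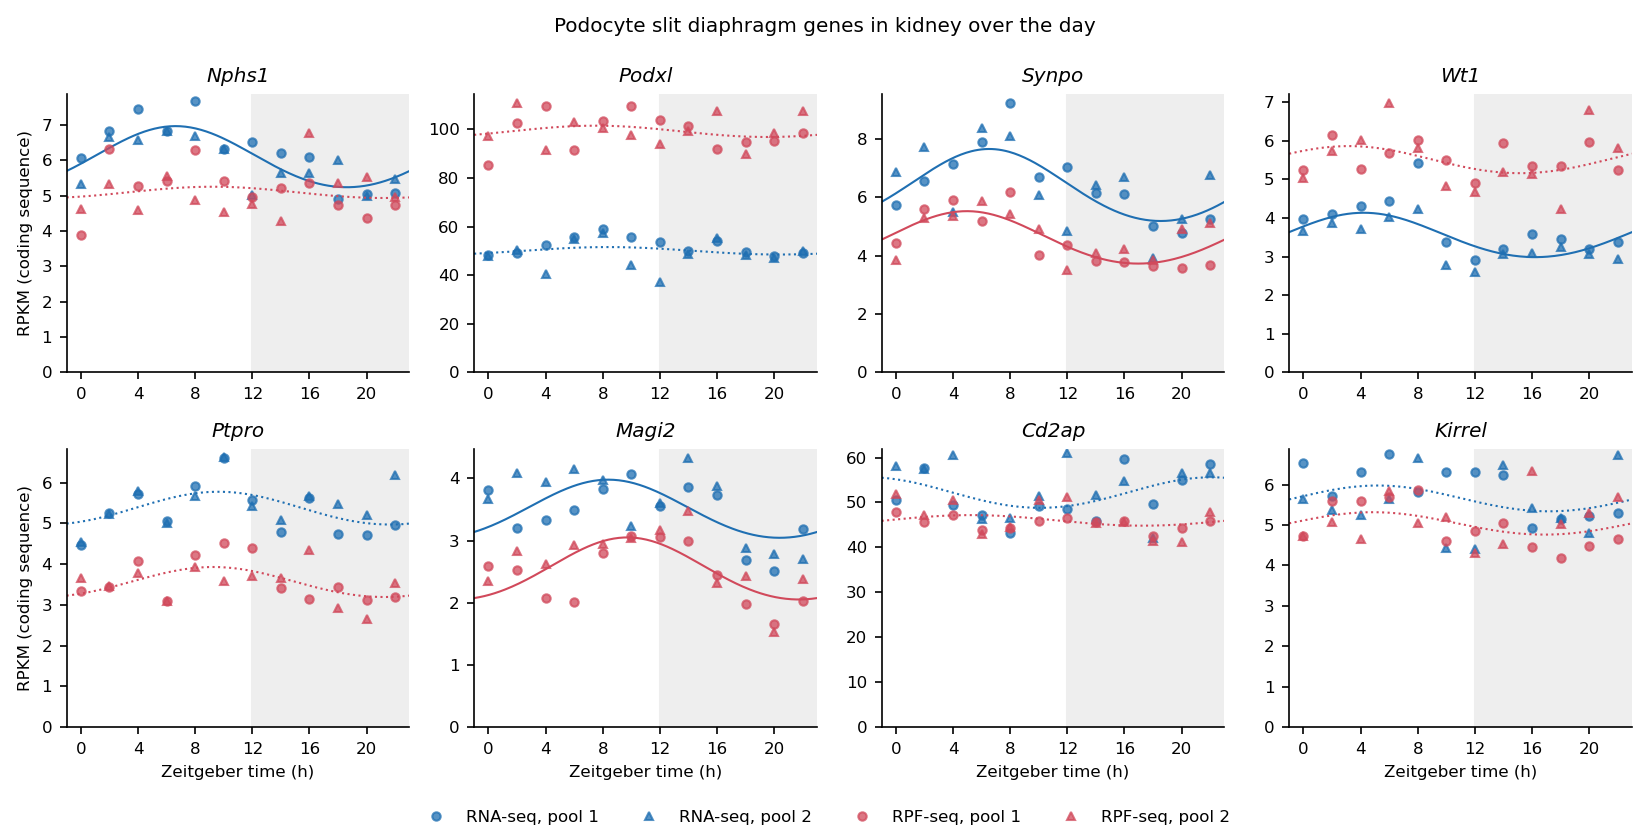
RPKM of the 8 members against Zeitgeber time, in RNA-seq (blue) and RPF-seq (red), with circles for pool 1, triangles for pool 2 and the dark phase shaded. Curves are the fitted 24-h cosines, solid where FDR was under 0.05; Synpo and Magi2 have solid curves in both assays, and Nphs1 and Wt1 in RNA-seq alone.

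In RPF-seq, 2 of 8 members were called rhythmic, Synpo and Magi2, against 30.9% of all tested genes. None reached a fold of 1.5 as well, against 7.58% of genes. Synpo footprints had pools at 3.53, 4.41 and 6.17 RPKM (lowest, median, highest), with ZT08 at 6.17 and 5.44 and ZT18 at 3.67 and 3.85. The fit of 1.47-fold (log2 0.55 ± 0.10 SE, FDR = 0.00069) peaked at 4.96 h. Magi2 footprints had pools at 1.53, 2.56 and 3.48 RPKM, with ZT14 at 3.00 and 3.48 and ZT20 at 1.66 and 1.53. They were fitted with 1.46-fold (log2 0.55 ± 0.13 SE, FDR = 0.0071) and a peak at 9.73 h. The TE of both genes did not pass the test over the day (FDR = 0.34 for Synpo and 0.25 for Magi2).

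The footprints of the other members moved less or not in step. Nphs1 footprints ranged from 3.90 RPKM in ZT00 pool 1 to 6.76 in ZT16 pool 2 around a median of 5.09, with a fit of 1.06-fold (FDR = 0.80). Wt1 footprints were fitted with 1.13-fold (FDR = 0.29), Ptpro with 1.22-fold and a peak at 9.25 h (FDR = 0.078), and Kirrel with 1.11-fold (FDR = 0.39). Podxl and Cd2ap, the best counted members, both had fits of 1.05-fold (FDR = 0.65 and 0.55). A call in RNA-seq and none in RPF-seq does not show that a gene differed between the assays, which is the question of TE over the day.

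TE was called rhythmic for 1 of 8 members, Nphs1, against 17.1% of all tested genes. With a fold of at least 1.5 it was none, against 3.74%. Nphs1 TE was 0.706 and 0.697 in the pools of ZT04, 0.818 and 0.731 at ZT08, 0.879 and 1.20 at ZT16 and 0.863 and 1.10 at ZT20. The light-phase pools, from 0.642 to 0.927, overlapped with the dark-phase pools, from 0.758 to 1.20, and both pools of ZT14 (0.841 and 0.758) lay within the light-phase range. The fit gave 1.27-fold (log2 0.34 ± 0.10 SE) with a peak at 17.998 h, nearly opposite to the RNA peak. Its FDR of 0.0495 was just inside the threshold and was lost in 9 of 12 alternatives, over which it ranged from 0.041 to 0.55. The next members by FDR were Cd2ap (1.17-fold, FDR = 0.075) and Wt1 (1.22-fold, FDR = 0.20), and Podxl (1.02-fold) and Kirrel (1.01-fold) had the flattest TE.

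Base composition of the libraries moved with part of these values. The coding GC content of Synpo (62.4%), Wt1 (61.7%) and Nphs1 (58.8%) was above that of 95.6%, 94.4% and 84.8% of tested genes, and that of Cd2ap (43.0%) above only 5.67%, with a median of 52.7%. For each library the slope of its deviations from the gene means on coding GC was taken. In RNA-seq it was highest in ZT08 pool 1, at 0.27 (log2 per 10 percentage points of GC), and between 0.15 and 0.19 in the other 3 pools of ZT06 and ZT08. It was lowest in ZT12 pool 2 at -0.22, and at -0.15 and -0.20 in the pools of ZT20. GC-rich genes therefore read higher around ZT06 to ZT08 than at ZT20 in the RNA libraries as a whole. The slope did not follow time of day alone. It was 0.23 in ZT14 pool 1 and 0.07 in ZT14 pool 2. Between the pools of ZT04 (0.15 and -0.15) and of ZT12 (0.12 and -0.22) it changed sign.

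With the trend on coding GC and length taken out of every library, an alternative chosen after the data had been seen, the same 4 members were called in RNA-seq, against 45.8% of all genes, and the same 2 in RPF-seq, against 34.4%. The RNA amplitude of Nphs1 was then 1.15-fold (log2 0.20 ± 0.06 SE, FDR = 0.036) and that of Synpo 1.24-fold (log2 0.31 ± 0.10 SE, FDR = 0.036). Wt1 (1.31-fold) and Magi2 (1.24-fold) lost less. In footprints Synpo had 1.41-fold and Magi2 1.42-fold. The TE rhythm of Nphs1 was no longer called (1.16-fold, FDR = 0.15), while 9.72% of all genes still were. The fitted TE of Cd2ap went from 1.17-fold to 1.02-fold.

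**Figure D3:**
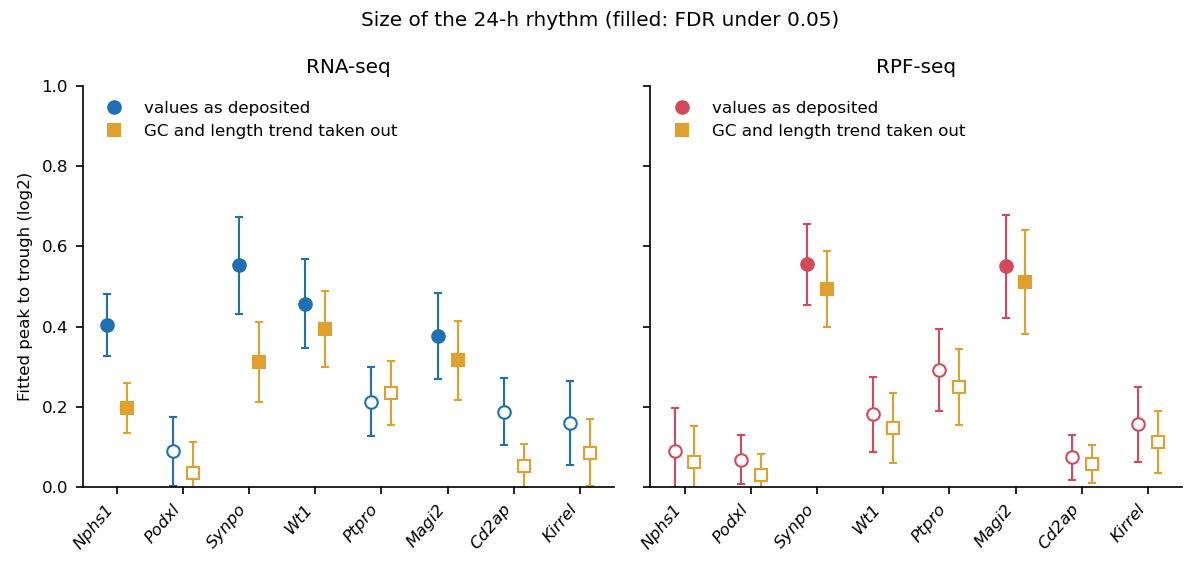
Fitted peak to trough (log2, error bars SE) of the 24-h rhythm in RNA-seq (left) and RPF-seq (right), from the values as deposited (circles) and with the trend on coding GC and length taken out of each library (squares); filled symbols have an FDR under 0.05. Nphs1 and Synpo fall from 0.40 to 0.20 and from 0.55 to 0.31 in RNA-seq, and the same symbols remain filled.

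Other genes of the foot process and its basement membrane, from a list of 37 of which 34 could be tested, were called rhythmic in 21 cases in RNA-seq and 15 in RPF-seq, against 48.6% and 30.9% of all genes. The median amplitude of this list was 0.23 (log2) in RNA-seq and 0.22 in RPF-seq, near those of all genes (0.27 and 0.24). The members had medians of 0.29 and 0.17. The basement membrane collagen chains Col4a4 and Col4a3 and the laminin chain Lama5 were among the genes with the smallest FDR in RNA-seq, with 1.57-fold for Col4a4, 1.35-fold for Col4a3 and 1.44-fold for Lama5. In RPF-seq Col4a4 did not pass (1.14-fold, FDR = 0.41). Kirrel2 and Kirrel3, paralogs of Kirrel, were not listed in either assay, and Trpc6 not in RPF-seq.

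Of the podocyte genes that are not members, 18 could be tested, and 11 were called in RNA-seq and 8 in RPF-seq, with median amplitudes of 0.46 and 0.28. Col4a3 and Col4a4 are among the genes that stand in both lists. Thsd7a, the podocyte membrane antigen, had 1.46-fold in RNA-seq and 1.23-fold in RPF-seq, and the chloride channel family member Clic3 1.71-fold in RPF-seq. Markers of other cells were called as well, to be read against the same 48.6% and 30.9% of all genes, among them 8 of 9 of the glomerular endothelium in RNA-seq and 7 in RPF-seq, 4 and 6 of 8 of mesangium and pericytes, and 3 and 3 of 4 of parietal epithelium. Tubular markers followed with 6 and 4 of 8 (proximal tubule), 6 and 4 of 6 (thick ascending limb and distal convoluted tubule) and 4 and 5 of 7 (collecting duct). For immune cells it was 2 and 0 of 5, for red blood cells 0 and 0 of 4, for fat 2 and 2 of 2 and for urothelium 1 and 2 of 4. The part of other cells in the members' rhythms was not tested.

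Since 2 pools were taken at each timepoint, differences between them are taken within a time of day, and RNA and footprints of a pool came from the same lysate. A difference in glomerular content would be carried by both assays. A difference between daily cycles would be too, and the sources used here do not give the cycle of each pool. For each gene the difference of pool 2 minus pool 1 in log2(RPKM + 0.1) was correlated between RNA-seq and RPF-seq over the 12 timepoints (permutation test, 100000 resamples).

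Of the members, Podxl alone was called, 1 of 8 against 2.84% of all tested genes with a positive r. At an unadjusted permutation p under 0.05 it was 2 of 8, Podxl and Cd2ap, against 16.1%. Its r was 0.79 and rho 0.88 (permutation p = 0.0008 and 0.00034, FDR = 0.037), 9 of 12 timepoints had the same direction, and r was 0.73 without the 2 timepoints farthest from the median in RNA. Its pool differences at ZT04, ZT10 and ZT12 were negative in both assays, as at ZT12, where RNA was 53.7 and 37.3 RPKM and footprints 104 and 94.0. The FDR rose above 0.05 when any timepoint other than ZT12 was left out, and ranged from 0.0090 to 0.10 across all alternatives.

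The other members were not called. Cd2ap had r = 0.58 and rho = 0.60 (permutation p = 0.047 and 0.042, FDR = 0.30), and r was 0.38 without its 2 farthest timepoints. Synpo had r = 0.52 (permutation p = 0.086, FDR = 0.39) and Magi2 0.40 (permutation p = 0.20). Kirrel (0.31), Nphs1 (0.28), Ptpro (0.07) and Wt1 (-0.03) had permutation p-values of 0.32, 0.39, 0.82 and 0.93, and the FDR of these 4 was 0.66 or higher. The median r of the members was 0.36 and that of all genes 0.26, with 76.7% of all genes above 0. For most genes the pool differences were thus positively correlated between the assays.

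**Figure D4:**
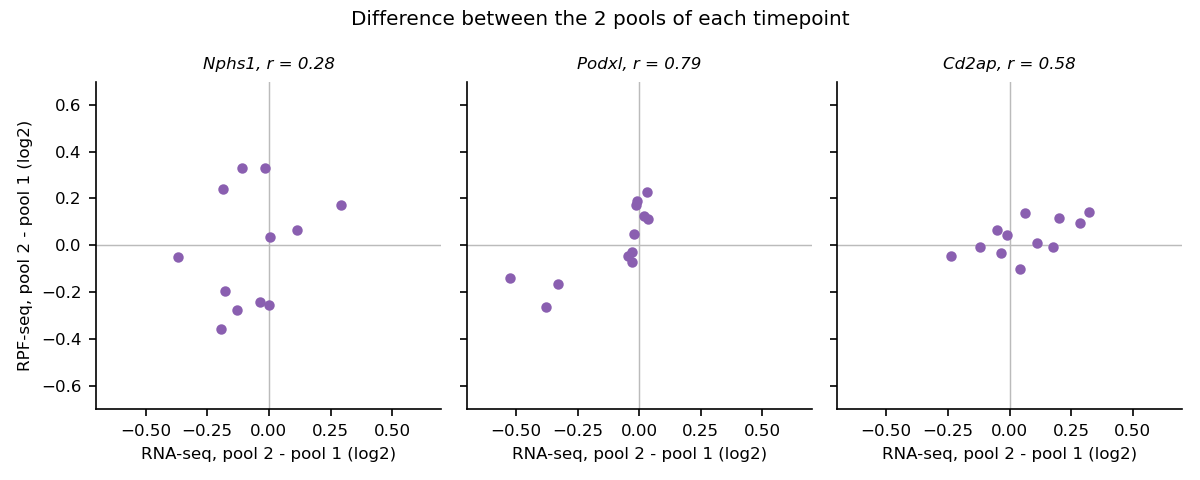
Difference between the 2 pools of each timepoint (log2) in RPF-seq against that in RNA-seq, for Nphs1, Podxl and Cd2ap; each point is 1 of 12 timepoints and r is Pearson's. Along the RNA-seq axis the points of Podxl (0.79) are spread mostly by 3 timepoints with negative differences. In RPF-seq positive differences of Podxl are large too, as at ZT16 (91.8 and 107.5 RPKM). The points of Nphs1 (0.28) do not line up.

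A podocyte index, the mean of the standardised log2 values of the 18 non-member podocyte genes, was used to ask whether the members varied with podocyte content. Between the assays its own pool differences had r = 0.77 and rho = 0.58 (permutation p = 0.0043 and 0.052, n = 12), r was 0.72 without the 2 farthest timepoints, and 10 of 12 had the same direction. With the GC and length trend taken out, r was 0.78 and rho 0.74 (permutation p = 0.0046 and 0.0084), and 7 of 12 had the same direction. The agreement of means over other sets of genes was not tested. The RNA index differed most at ZT22, with -0.45 in pool 1 and 0.45 in pool 2, where the RPF index was -0.40 and 0.43. The RPF index differed most at ZT00, with -0.56 and 0.33 beside -0.17 and 0.06 in RNA. At ZT22 Synpo RNA was 5.26 and 6.75 RPKM, Kirrel 5.29 and 6.74 and Ptpro 4.95 and 6.20. Podxl, with 49.2 and 49.8, and Nphs1, with 5.06 and 5.48, differed little, and Wt1 (3.38 and 2.93), Magi2 (3.18 and 2.69) and Cd2ap (58.5 and 56.5) were lower in pool 2. The footprints of all 8 members were higher in pool 2 at ZT22, among them Synpo with 3.67 and 5.13 RPKM and Kirrel with 4.66 and 5.69. Podxl had 98.5 and 107.6, Nphs1 4.73 and 4.96 and Cd2ap 45.8 and 47.9. The share of all genes higher in pool 2 at ZT22 was not computed. At ZT00 the footprints of Synpo (4.44 and 3.86), Wt1 (5.23 and 5.03), Magi2 (2.59 and 2.34) and Kirrel (4.726 and 4.718) were lower in pool 2. Those of Nphs1 (3.90 and 4.62), Podxl (85.3 and 97.2), Ptpro (3.34 and 3.66) and Cd2ap (47.9 and 52.0) were higher.

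Over all timepoints no member was called for a slope on the index of the other assay, 0 of 8 in RNA-seq and 0 of 8 in RPF-seq. The background was 0.0% in either assay, since limma called none of the 11845 genes outside the index, over which these p-values were adjusted. At an unadjusted limma p under 0.05, no member had a positive slope in RNA-seq, against 2.25% of genes. In RPF-seq Kirrel (0.13 ± 0.04 SE, FDR = 0.90) and Synpo (0.11 ± 0.05, FDR = 0.91) did, 2 of 8 against 3.79%. Slopes are in log2 per SD of what remained of the index after the timepoint factor. Markers of other cells had positive slopes at this p in RPF-seq too, 4 of 5 of immune cells (median slope 0.09, beside 0.05 for the members) and 1 of 2 of fat (0.33). So did 1 each of mesangium and pericytes, thick ascending limb and distal convoluted tubule, and collecting duct. The part of these markers in the members' slopes was not tested. Nphs1 followed with 0.08 ± 0.05. The slopes of Wt1, Magi2 and Cd2ap in RPF-seq were all between -0.01 and 0.01. In RNA-seq the slopes ran from -0.04 ± 0.05 for Magi2 to 0.08 ± 0.05 for Synpo.

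Members were also compared with each other. Over the 28 pairs, the correlation of pool differences had a median r of 0.24 for RNA and of 0.11 for footprints, beside 0.01 and 0.00 for all pairs of tested genes. In RNA-seq 4 pairs were above 0.5, Podxl with Synpo (0.78), Podxl with Kirrel (0.74), Nphs1 with Ptpro (0.70) and Ptpro with Kirrel (0.53). In RPF-seq it was 4 other pairs, Nphs1 with Kirrel (0.73), Podxl with Ptpro (0.73), Synpo with Kirrel (0.70) and Nphs1 with Podxl (0.56). No pair was above 0.5 in both assays, and of all gene pairs 9.56% in RNA-seq and 7.73% in RPF-seq were. These r, each over 12 timepoints that share libraries, are a description.

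Cd2ap had the most negative r with other members. In RNA-seq they were -0.86 with Nphs1, -0.66 with Podxl, -0.50 with Kirrel, -0.47 with Ptpro and -0.34 with Synpo, while those with Wt1 (-0.11) and Magi2 (0.03) were near 0. In RPF-seq its r with each other member was below 0, from -0.46 to -0.12. The differences in RNA-seq also ran with the difference in GC slope between the 2 libraries of a timepoint, with r of 0.85 for Podxl, 0.73 for Nphs1, 0.69 for Synpo, 0.58 for Kirrel, 0.46 for Ptpro and -0.89 for Cd2ap, where the median size over all genes was 0.41. Wt1 (0.13) and Magi2 (-0.08) were below that size. With the GC and length trend taken out, the r of Cd2ap in RNA-seq went to -0.54 with Nphs1, 0.04 with Podxl, 0.39 with Wt1 and 0.70 with Synpo, so its negative values were not kept under this alternative apart from those with Nphs1, Ptpro (-0.24) and Kirrel (-0.08). The median r of the 28 pairs was then 0.00 in RNA-seq and -0.01 in RPF-seq. Above 0.5 in RNA-seq were 5 pairs, Synpo with Cd2ap, Podxl with Kirrel (0.61), Nphs1 with Ptpro (0.57), Wt1 with Magi2 (0.51) and Podxl with Synpo (0.51), against 7.76% of all gene pairs. In RPF-seq 3 pairs were, Podxl with Ptpro (0.72), Nphs1 with Kirrel (0.63) and Synpo with Kirrel (0.58), against 7.05% of all gene pairs. Synpo with Cd2ap was at -0.60 in RPF-seq. The agreement of Podxl between the assays was then 0.80 (FDR = 0.021).

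**Figure D5:**
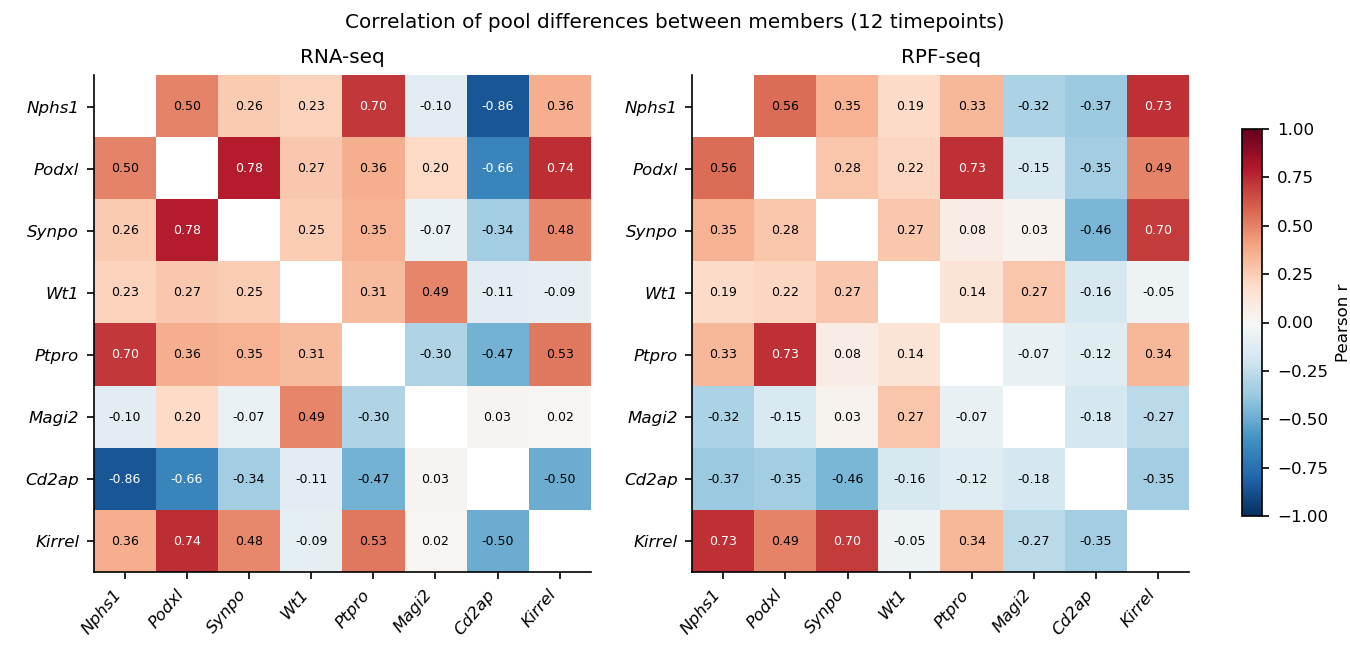
Pearson r of the pool 2 minus pool 1 differences between each pair of the 8 members over 12 timepoints, in RNA-seq (left) and RPF-seq (right), from -1 (blue) to 1 (red). Cd2ap is blue against 5 members in RNA-seq, down to -0.86 with Nphs1, and near white against Wt1 and Magi2, and the reddest pairs differ between the assays.

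Likeness to Nphs1 was taken as the lower of the r in both assays over the deviations of 24 samples from their timepoint means. Within a timepoint the deviations of the pools mirror each other, so each r rested on 12 pool differences, not on 24 separate values. The genes most like Nphs1 were Lrwd1 (0.83), Srsf1 (0.78), Abca2 (0.77), Tspo (0.77), Wdr55 (0.77), Chid1 (0.77), Inpp5e (0.76) and Armc5 (0.76). None of them is in the podocyte lists, and they ranged in mean RNA level from 5.76 RPKM (Lrwd1) to 129.2 (Tspo). Among 11862 genes Podxl ranked 282nd, Kirrel 611th, Ptpro 1243rd, Synpo 1675th, Wt1 2309th, Magi2 7349th and Cd2ap 11833rd. The likeness of library composition between these genes was not tested.

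The promoter windows of Kirrel, Magi2 (2 windows), Ptpro, Nphs1 and Cd2ap in RefSeq (GRCm38.p6, 300 bases around the transcription start) were searched on both strands for the clock motifs CACGTG (E-box) and TTATGTAA (D-box) and for the Wt1 site GCGGGGGCG. These letters were in none of the 6 windows, and in 7.15%, 0.938% and 2.91% of all 32851 windows.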

How the data were processed

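Kidney lysates were split into total RNA-seq (Ribo-Zero) and RPF-seq (RNase I digestion, size exclusion columns) libraries. Per the study's methods, the authors trimmed reads with cutadapt, filtered them by size, mapped them with Bowtie2 2.2.1 and TopHat2 2.0.11 to mouse sequences (GRCm38.p2), counted coding reads, normalised counts by the upper quantile method of edgeR and deposited 1 RPKM table per library (12728 genes in RNA-seq, 12622 in RPF-seq). The read depth behind the RPKM values was recovered from 80 low values per library, of which 93.75 to 100% were whole within 0.1 reads. This is a depth after the authors' scaling, and counting errors drawn from it leave out all other error.

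Genes with a median of at least 0.5 RPKM in both assays were kept (11863), and log2(RPKM + 0.1) was fitted in limma 3.58.1 (R 4.3.3; moderated F or t, trend, Benjamini-Hochberg): 24-h cosine and sine for RNA, RPF and TE, mean TE against the median gene, and the slope on the podocyte index with timepoint as a factor. Since the tables hold RPKM, no count test was run. Pool agreement used 2-sided permutation tests (100000 resamples, 20000 for alternatives; Python 3.11.15, numpy 2.4.6, scipy 1.17.1). The rhythm fits, the slope on the podocyte index and the pool agreement were checked on simulated data. Coding GC, length and start sites came from GENCODE vM21 (GC found for 99.3% of genes tested). Symbols were matched for 12653 of 12728 RNA and 12569 of 12622 RPF identifiers.

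The members and gene lists (podocyte index, other foot process genes and cell type markers) were chosen with earlier results of these data known. Results for some single genes of these lists, and 1 other version of the podocyte index, are not reported here. All members are named throughout, from other lists at most the 4 called genes with the smallest FDR per result, and for Nphs1 the 8 most alike genes.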

Additional observations from a re-analysis of the deposited data

Results flagged for a closer look

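One result met the criteria for a closer look, the 24-h rhythm of Nphs1 footprints relative to its RNA, because the effect of time of day differed between the assays by a test of the difference itself (FDR = 0.0495 by limma, fitted TE 1.27-fold, peak at 17.998 h). RNA was fitted with 1.32-fold and footprints with 1.06-fold. Groups of 2 pools are too small for a check of single outlying samples.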

How the results depend on the processing

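Counts of the 8 members called at FDR under 0.05 were recomputed under each alternative. In RNA-seq 4 were called, 2 with timepoint as a factor and 0 to 3 without 1 of the replicates. In RPF-seq 2 were called, 1 with timepoint as a factor, 3 with a 12-h harmonic (Cd2ap added) and 0 to 1 without 1 of the replicates. In TE 1 was called, and 0 with no filter on low values, quantile normalisation, a 12-h harmonic, timepoint as a factor, ZT04 pool 2 left out, or the GC and length trend taken out, and 0 to 0 without 1 of the replicates. For pool agreement 1 was called, 0 with differences not centred (no replicate block), and 0 to 1 with 1 timepoint left out. Calls over all genes moved as well: from 5761 to 1200 without replicate 1 and 3674 with timepoint as a factor (RNA), from 3663 to 460, 2074 without replicate 2 and 1520 (RPF), and from 2028 to 0, 2 and 101 and to 1153 without the GC trend (TE), and from 341 to 159 by Spearman's rho and 199 to 309 with 1 timepoint left out (agreement). Mean TE (7 called) and both slopes on the podocyte index (0 called) stayed within 1.5 times of these counts under every alternative run.

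Replicate numbers showed no common pairing of the samples: differences of replicates at different timepoints correlated with a mean r of 0.03 (RNA) and 0.02 (RPF). Over the 66 pairs of timepoints r ranged from -0.18 to 0.48 (RNA) and from -0.20 to 0.19 (RPF), so a pairing shared by some timepoints was not excluded. With the replicate block the TE count went from 1 to 0, and the other fits kept 4 (RNA), 2 (RPF), 7 (mean TE) and 0 (both slopes).

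Of 792 values of single members under an alternative, 714 kept their side of the threshold without a counted change of direction. Another 35 were no longer called, 5 were newly called and 38 changed sign, none of them called. For rhythms, a change of direction was a peak moved by over 6 h, counted only for members called in the main fit. The slopes on the index that changed sign with the GC and length trend taken out were Podxl (-0.0086) in RNA-seq and Podxl (-0.013), Wt1 (-0.013), Ptpro (-0.024), Magi2 (0.028) and Cd2ap (0.020) in RPF-seq. With a cosine in place of the timepoint factor they were Wt1 (0.060) and Magi2 (0.0067) in RNA-seq and Magi2 (0.024) in RPF-seq, and with the index from the same assay Wt1 (-0.0049) and Cd2ap (0.0081) in RPF-seq. The RNA slope of Wt1 was 0.0022 with a median RPKM of at least 2 and 0.0098 with the replicate block. With 1 timepoint left out, slopes ranged from -0.022 to 0.025 (Wt1, RNA), -0.024 to 0.026 (Wt1, RPF), -0.049 to 0.0092 (Magi2, RPF) and -0.019 to 0.00996 (Cd2ap, RPF). The pool agreement of Wt1 was 0.078 with differences not centred, 0.20 without the GC trend and -0.19 to 0.13 with 1 timepoint left out, and that of Ptpro -0.016 with differences not centred and -0.18 to 0.23 with 1 timepoint left out. The fitted peak moved by over 6 h in 14 of 288 rhythm values, 0 of them of called members, so none was counted as a change of direction. Depth limits the scarce members most: at Wt1's 87.9 RNA reads, differences near 10.7% are of the size of counting error. The alternatives that leave out ZT04 pool 2 or the GC trend were chosen after seeing the data.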
